A study of Mus musculus with 12 samples.

Results

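The interleukins and interleukin receptors of the terminal ileum were examined in mice that had or had not received a single early-life course of the macrolide tylosin (pulsed antibiotic treatment, PAT), in the presence or absence of a microbiota. The genes were those with values on a mouse immunology panel whose symbol is Il followed directly by a digit, leaving out Il17a, Il17f, Il22, Il23a and Il23r. This gave 52 of 556 genes: 24 ligands, 27 receptor chains and decoy receptors, and the IL-1 receptor antagonist gene Il1rn. RNA was measured in 12 male C57BL/6 mice at week 7, with 3 mice in each of 4 groups. Specific pathogen-free (SPF) mice carried a conventional microbiota and germ-free (GF) mice carried none. SPF PAT and GF PAT mice had been exposed to tylosin as suckling pups, through their nursing dams, with the drug in autoclaved water. SPF control and GF control mice received the same water without the drug. The germ-free animals came from a separately bred colony, so colonization and colony of origin cannot be told apart. The labels give neither litter nor cage, so mice of a group may be littermates, and the p-values measure the spread between these mice.

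Interleukins are secreted signalling proteins, and most act through receptors assembled from a chain that binds the ligand and a chain that other receptors share. The common gamma chain (Il2rg) serves the receptors for IL-2, IL-4, IL-7, IL-9, IL-15 and IL-21, gp130 (Il6st) those for the IL-6 family, and the accessory protein Il1rap several receptors of the IL-1 family. In the small intestine, IL-15 is known for maintaining intraepithelial lymphocytes, IL-18 is made by epithelial cells, and IL-25 is a product of tuft cells that acts on type 2 lymphoid cells.

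The bases upstream of the annotated start are shown for 4 receptor genes, because Il17rb, Il6ra and Il1rl2 were lower in SPF control mice than in GF control and in SPF PAT mice, whereas Il18rap, which lies in the same gene cluster as Il1rl2, was higher in SPF control than in SPF PAT mice. Each run holds the 250 bases before the start, 5′ to 3′ on the gene's own strand, from RefSeq (GRCm38.p6), and capitals mark the matches to the motifs named below.
Il17rb, chr14:30008897-30009146, minus strand: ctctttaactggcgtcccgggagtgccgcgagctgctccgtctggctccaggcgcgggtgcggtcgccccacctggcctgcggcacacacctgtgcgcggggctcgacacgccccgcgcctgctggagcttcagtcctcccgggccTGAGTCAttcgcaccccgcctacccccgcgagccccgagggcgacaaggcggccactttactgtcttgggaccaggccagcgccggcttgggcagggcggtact
Il6ra, chr3:89913197-89913446, minus strand: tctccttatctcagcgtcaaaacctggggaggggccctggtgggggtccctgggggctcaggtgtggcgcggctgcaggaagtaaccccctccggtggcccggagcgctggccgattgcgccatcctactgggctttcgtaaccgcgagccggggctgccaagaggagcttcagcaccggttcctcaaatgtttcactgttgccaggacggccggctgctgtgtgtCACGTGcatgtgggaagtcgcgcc
Il1rl2, chr1:40324339-40324588, plus strand: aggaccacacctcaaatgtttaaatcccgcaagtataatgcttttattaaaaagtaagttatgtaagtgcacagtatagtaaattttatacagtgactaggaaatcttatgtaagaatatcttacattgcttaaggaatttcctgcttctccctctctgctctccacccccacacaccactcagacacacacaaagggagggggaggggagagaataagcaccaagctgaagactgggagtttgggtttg
Il18rap, chr1:40515112-40515361, plus strand: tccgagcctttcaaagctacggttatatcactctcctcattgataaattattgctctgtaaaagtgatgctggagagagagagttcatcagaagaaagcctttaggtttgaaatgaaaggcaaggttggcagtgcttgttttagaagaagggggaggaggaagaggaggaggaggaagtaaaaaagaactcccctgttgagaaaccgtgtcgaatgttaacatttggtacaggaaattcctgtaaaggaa
Promoter entries were matched for 38 of the 52 genes (51 entries), and no entry was matched for Il15, Il10rb, Il12rb1, Il17ra, Il25 or Il2rb. Both strands were searched for the letters of 5 motifs. The AP-1 motif TGANTCA occurred in the Il17rb window, at -104 from the start, and in 13.7% of the 51 interleukin entries against 6.75% of all 32851 promoters. The E-box CACGTG occurred in the Il6ra window, at -24, and in 3.92% of the interleukin entries against 6.02% of all promoters. The NF-kB motif (GGGA, any base, TTTCC) was found in 3.92% of the interleukin entries and 0.356% of all promoters, the IRF motif (GAAA, any 2 bases, GAAA) in 3.92% and 2.98%, and the STAT motif TTCNNNGAA in 9.80% and 7.02%. The interleukin shares rest on few entries: 7 for AP-1, 5 for STAT and 2 each for the E-box, NF-kB and IRF motifs. The 51 entries belong to 38 genes, so some genes count more than once. None of the 5 motifs occurred in the Il1rl2 and Il18rap windows. In the RefSeq gene order, Il1r2, Il1r1, Il1rl2, Il1rl1, Il18r1 and Il18rap follow one another on chromosome 1, with a long noncoding RNA gene and a pseudogene as the other entries between them.

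The total count per mouse was 806043 to 923395 in SPF controls and 600308 to 681370 in the other groups, and the interleukin genes made up 1.65% to 1.98% of it. Values are given as normalized counts (the count of probe molecules divided by a size factor for the mouse) or as their log2, and counts of different probes are not compared as levels. Markers of ileal epithelium were abundant in every mouse (7 of the 9 listed had values, summing to 132149 to 226066 normalized counts). In these whole-tissue samples, fewer cells of a type and less RNA per cell cannot be told apart. The 3 B cell marker sums within a group differed widely. Over 7 of 7 genes (Ms4a1, Cd79a, Cd79b, Cd22, Cr2, Pax5 and Btk) they were 466, 4907 and 4273 in SPF controls (mice X8, X7 and X2), 213, 268 and 4487 in SPF PAT mice (X27, X26 and X21), 194, 406 and 2572 in GF controls (X39, X38 and X37), and 1173, 2469 and 4309 in GF PAT mice (X43, X42 and X41). None of the 7 genes passed the threshold in any comparison, and no listed marker of any type was at a count of 0 in a mouse.

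Of the 52 genes, 32 had a mean normalized count of at least 20. The 20 below it were 18 ligands (Il1a, Il2, Il3, Il4, Il5, Il6, Il9, Il10, Il12a, Il12b, Il13, Il17b, Il19, Il20, Il21, Il25, Il27 and Il28a, an older name of Ifnl2) and both chains of the IL-12 receptor. All were tested, and their values rest on few molecules. The ligands above it were Il1b, Il7, Il15, Il16, Il18 and Il33. Il2, the T cell growth factor, was at a count of 0 in 10 mice, with 3 counts in mouse X39 and 6 in mouse X42. In the map of all 52 genes over the 12 mice, the colour followed the group most plainly for Il15, Il10rb, Il6ra and Il17rb, and followed single mice within groups for Il21r, Il2rg, Il27ra and Il16.

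**Figure D1:**
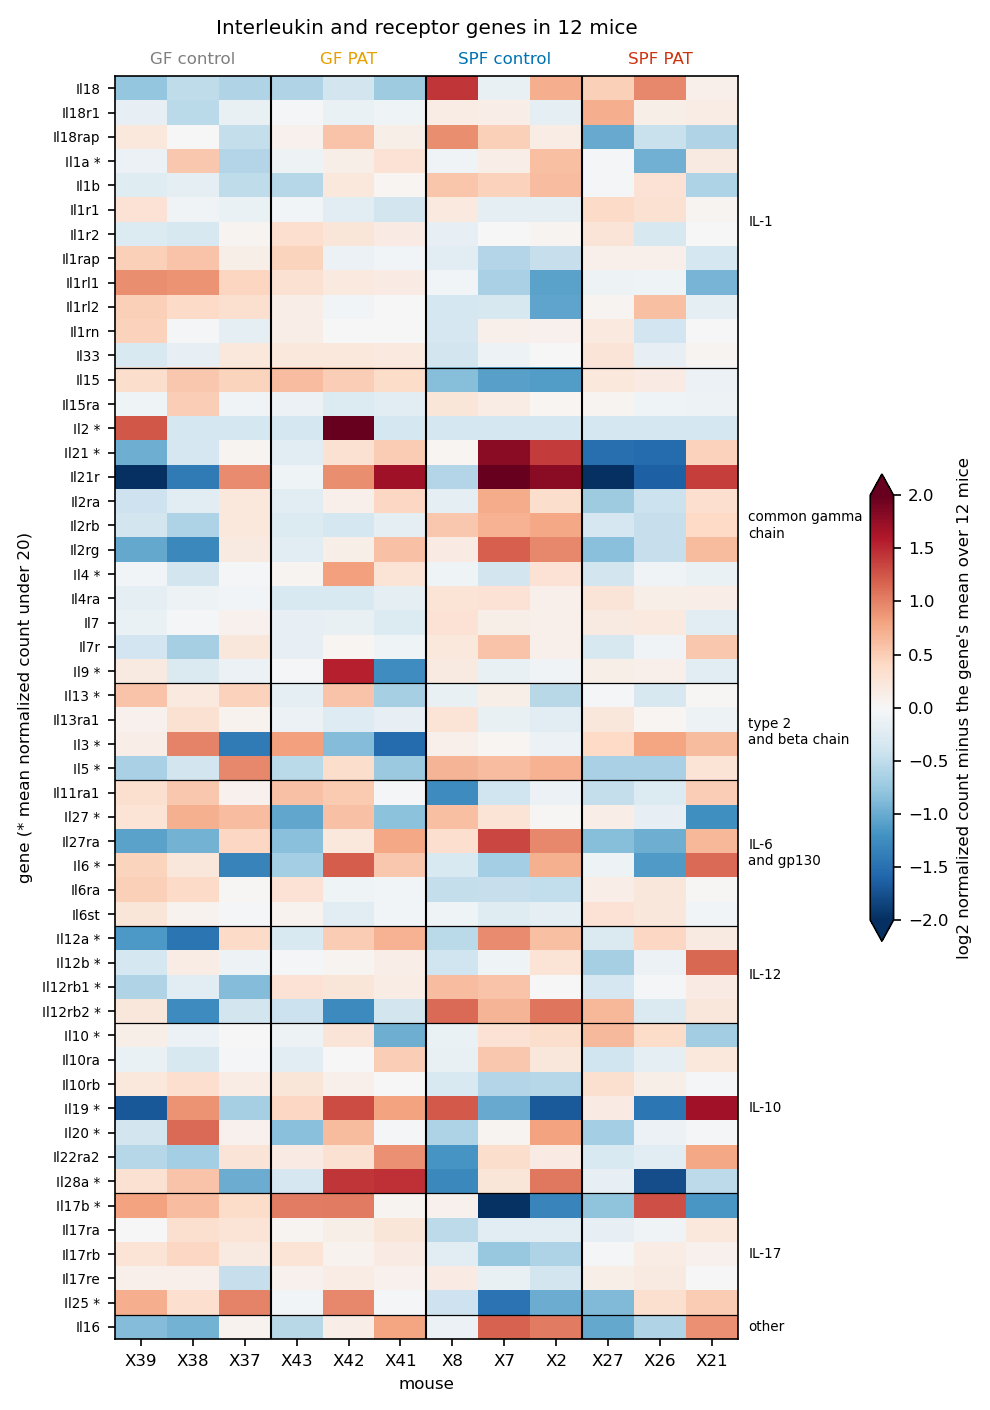
Each row is a gene and each column a mouse (3 per group, 4 groups); the colour is the log2 normalized count minus the gene's mean over the 12 mice, with values beyond -2 or 2 shown at the end of the scale. Il15 is below its mean in all 3 SPF control mice, while Il21r is highest in mice X7, X2, X21 and X41 of 3 different groups. Among GF controls, Il21r is also higher in mouse X37 (log2 6.62) than in X39 and X38 (3.17 and 4.27).

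The first comparison asked how colonization without tylosin went with these genes. SPF controls differed from GF controls in 16 of 52 interleukin genes (30.8%), against 42.1% of all 556 genes tested. 7 were higher in SPF controls (19.4% of all genes were higher) and 9 lower (22.7% of all genes were lower). The higher genes were Il12rb1, Il12rb2, Il18, Il1b, Il2rb, Il2rg and Il4ra, and the lower were Il15, Il17ra, Il17rb, Il25, Il10rb, Il6ra, Il1rap, Il1rl1 and Il1rl2. Of the 27 receptor chains 5 were higher and 7 lower, and of the 24 ligands 2 were higher and 2 lower. With analysis of variance and Tukey's test, only Il10rb, Il12rb1, Il15, Il17rb, Il1rl1, Il4ra and Il6ra kept this call, and the share of all genes with that test is not given. The median log2 difference was 0.08 over the interleukin genes and 0.08 over all genes. The medians over all genes of the 2 groups lay 0.44 log2 units apart, and with each mouse centred on its median the calls were 1 higher (Il2rg) and 13 lower, where 40.6% of all genes passed, 10.3% higher and 30.4% lower.

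Il15 differed most clearly. Its normalized counts were 337, 382 and 361 in GF controls, 404, 370.0 and 339 in GF PAT mice, 146, 124 and 122 in SPF controls and 306, 295 and 245 in SPF PAT mice. Every SPF control lay below all 9 other mice, and the SPF PAT mice lay between the SPF controls and the GF controls without overlap with either. In log2 units the means were 8.49 ± 0.09, 8.53 ± 0.13, 7.02 ± 0.14 and 8.13 ± 0.17 in the same order (SD, n = 3 each). SPF controls had 2.77-fold less Il15 RNA than GF controls (log2 difference -1.47 ± 0.13 SE, adjusted p = 6.74e-05), and SPF PAT mice had 2.16-fold more than SPF controls (log2 difference 1.11 ± 0.13 SE, adjusted p = 0.000820).

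The receptor chains for IL-15 did not share this order. Il15ra, which presents IL-15 to neighbouring cells, was at 82.8, 123 and 83.3 in GF controls, 80.4, 72.6 and 75.5 in GF PAT mice, 103, 96.8 and 89.8 in SPF controls and 91.3, 82.6 and 81.8 in SPF PAT mice, and passed in no comparison (SPF control minus GF control 0.03, 95% interval -0.32 to 0.38). Il2rb, the signalling chain shared by the IL-2 and IL-15 receptors, was at 146, 122 and 216 in GF controls, 154, 147 and 165 in GF PAT mice, 271, 302 and 319 in SPF controls and 148, 136 and 247 in SPF PAT mice. The SPF controls were the 3 highest mice for Il2rb, opposite to Il15. It was 1.90-fold higher in SPF than in GF controls (log2 difference 0.92 ± 0.25 SE, adjusted p = 0.0162) and 1.74-fold lower in SPF PAT than in SPF control mice (log2 difference -0.80 ± 0.25 SE, adjusted p = 0.0440). The first call was lost without mouse X2, X39 or X38 (0.87, 0.87 and 0.74), with Tukey's test, and with each mouse centred on its median. The second held under 8 of 21 alternatives, and was lost when any of mice X27, X26, X8, X7, X2, X43, X42, X41 or X39 was left out, where the difference lay between -0.86 and -0.63.

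Il2rg, the common gamma chain, was at 86.8, 72.3 and 200.2 in GF controls, 151, 191 and 264 in GF PAT mice, 198, 402 and 342 in SPF controls and 98.5, 127 and 273 in SPF PAT mice. Its mean was higher in SPF than in GF controls (log2 difference 1.48 ± 0.48 SE, adjusted p = 0.0322), although the groups overlapped, and the call was lost without mouse X7, X2, X39 or X38 (1.27, 1.39, 1.32 and 1.19). That call was also lost with Tukey's test, when only the groups compared were fitted, and when scaled to the total count. The mouse with the most Il2rg RNA in each group was the mouse with the highest B cell marker sum. Il4ra, the chain that binds IL-4 and IL-13, was at 1419, 1506 and 1555 in GF controls, 1306, 1317 and 1414 in GF PAT mice, 1965, 1987 and 1748 in SPF controls and 1931, 1755 and 1772 in SPF PAT mice. Both SPF groups lay above both GF groups. The difference between controls was small (log2 difference 0.35 ± 0.10 SE, adjusted p = 0.0204), turned to -0.09 with each mouse centred on its median, and lost its call without mouse X7, X39 or X38 (0.31, 0.31 and 0.35). The call was also lost when only the groups compared were fitted.

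The ligands of these chains were mostly at few counts. Il4 was counted at 6, 4 and 6 in GF controls, 6, 11 and 8 in GF PAT mice, 7, 6 and 9 in SPF controls and 4, 5 and 6 in SPF PAT mice. Il13 was counted at 11, 7 and 10 in GF controls, 6, 11 and 5 in GF PAT mice, 8, 10 and 6 in SPF controls and 6, 5 and 8 in SPF PAT mice, and Il9 at 5, 3 and 4 in GF controls, 4, 13 and 2 in GF PAT mice, 6, 5 and 5 in SPF controls and 4, 4 and 4 in SPF PAT mice. At this depth no difference in these 3 type 2 cytokines was detected. Il7, a survival factor for lymphocytes, was better counted, at 113, 120.5 and 130.1 normalized counts in GF controls, 109, 110.4 and 102 in GF PAT mice, 149.8, 134 and 133 in SPF controls and 139, 140.5 and 106 in SPF PAT mice. It passed in no comparison (SPF control minus GF control 0.20, adjusted p = 0.248).

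Il17rb, Il17ra and Il25 of the IL-17 family were lower in SPF than in GF controls. Il17rb, the chain that binds IL-25 and IL-17B, was at 128, 141 and 119.9 in GF controls, 128, 110.4 and 117 in GF PAT mice, 89.9, 62.4 and 68.8 in SPF controls and 103, 117 and 112 in SPF PAT mice. The SPF controls were the 3 lowest mice, 1.78-fold below GF controls (log2 difference -0.83 ± 0.15 SE, adjusted p = 0.00208), and SPF PAT mice were 1.52-fold above SPF controls (log2 difference 0.60 ± 0.15 SE, adjusted p = 0.0169). Il25 itself was counted at 11, 7 and 13 in GF controls, 6, 13 and 7 in GF PAT mice, 6, 3 and 4 in SPF controls and 3, 7 and 10 in SPF PAT mice. Its normalized counts did not overlap between the controls, 3.12-fold lower in SPF mice (log2 difference -1.64 ± 0.43 SE, adjusted p = 0.0124), and its difference between SPF PAT and SPF control mice did not pass (0.93, adjusted p = 0.128).

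Il17ra, the shared signalling chain of the IL-17 receptors, was at 484, 608 and 589 in GF controls, 506, 528 and 573 in GF PAT mice, 338, 416 and 419 in SPF controls and 436, 462 and 563 in SPF PAT mice. It was 1.43-fold lower in SPF than in GF controls (log2 difference -0.52 ± 0.15 SE, adjusted p = 0.0183), a call lost without mouse X8 or X38 (-0.42 and -0.46). Tukey's test and a fit of only the groups compared also lost this call. Il17b was counted at 11, 8 and 8 in GF controls, 12, 13 and 7 in GF PAT mice, 8, 2 and 3 in SPF controls and 3, 13 and 3 in SPF PAT mice, and its difference between controls did not pass (-1.67, adjusted p = 0.0704). Il17re, an epithelial receptor chain of the same family, ranged from 5.42 to 6.05 log2 units and passed in no comparison.

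In the IL-1 family, 2 of 12 genes were higher and 3 lower in SPF than in GF controls, against 19.4% and 22.7% of all genes. The 3 lower genes were the receptor chains Il1rl1, Il1rl2 and Il1rap. Il1rl1, the IL-33 receptor also called ST2, was at 521, 508 and 367 in GF controls, 337, 311 and 305 in GF PAT mice, 264, 174 and 130.0 in SPF controls and 253, 256 and 143 in SPF PAT mice. The 6 GF mice lay above the 6 SPF mice, with a 2.53-fold difference between controls (log2 difference -1.34 ± 0.29 SE, adjusted p = 0.00563). SPF PAT and SPF control mice overlapped (0.21, 95% interval -0.45 to 0.87). Il33, the ligand, was at 111, 122 and 158 in GF controls, 158, 158 and 157 in GF PAT mice, 106, 127 and 137 in SPF controls and 163, 122 and 142 in SPF PAT mice, and the control groups overlapped (-0.07, 95% interval -0.44 to 0.30).

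Il1rl2, the receptor for the IL-36 cytokines, was at 107, 99.99 and 95.5 in GF controls, 83.7, 73.6 and 76.4 in GF PAT mice, 59.9, 61.6 and 36.9 in SPF controls and 79.3, 116 and 67.7 in SPF PAT mice. The SPF controls were the 3 lowest mice. The SPF control mean was 1.96-fold below GF controls (log2 difference -0.97 ± 0.23 SE, adjusted p = 0.00857) and the SPF PAT mean 1.66-fold above SPF controls (log2 difference 0.73 ± 0.23 SE, adjusted p = 0.0443), the latter a call that held under 8 of 21 alternatives and, among the 12 fits without a mouse, under those without X21 and X8. Il1rap, the accessory chain for the IL-1, IL-33 and IL-36 receptors, was at 198, 211 and 153 in GF controls, 193, 130.3 and 136 in GF PAT mice, 121, 94.4 and 103 in SPF controls and 153, 152 and 111 in SPF PAT mice, and was 1.76-fold lower in SPF than in GF controls (log2 difference -0.81 ± 0.21 SE, adjusted p = 0.0109). Il1r1 and Il1r2, the signalling and decoy receptors for IL-1, passed in no comparison. Il1r1 was at 352, 275 and 263 in GF controls, 278, 248 and 223 in GF PAT mice, 331, 253 and 256 in SPF controls and 377, 355 and 299 in SPF PAT mice. Il1r2 was at 71.8, 69.9 and 90.4 in GF controls, 109, 102 and 96.9 in GF PAT mice, 77.4, 86.4 and 89.8 in SPF controls and 103, 69.6 and 86.5 in SPF PAT mice.

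The 2 higher genes of the family were ligands released after inflammasome processing. Il18 was at 346, 414 and 386 in GF controls, 389, 457 and 359.7 in GF PAT mice, 1588, 532 and 973 in SPF controls and 817, 1147 and 635 in SPF PAT mice. Every SPF mouse exceeded every GF mouse, with the widest spread among SPF controls. SPF controls were 2.46-fold above GF controls (log2 difference 1.30 ± 0.35 SE, adjusted p = 0.0153), and SPF PAT mice overlapped SPF controls (-0.16, 95% interval -0.95 to 0.63). The Il18 call between controls was lost with analysis of variance and Tukey's test, and with each mouse centred on its median. Il1b was at 26.9, 27.7 and 22.4 in GF controls, 21.4, 36.8 and 32.6 in GF PAT mice, 46.6, 44.0 and 48.7 in SPF controls and 31.2, 38.95 and 20.7 in SPF PAT mice. Its SPF controls were the 3 highest mice, 1.82-fold above GF controls (log2 difference 0.86 ± 0.25 SE, adjusted p = 0.0212), a call lost without mouse X2 or X37 (0.83 and 0.76), and the lower SPF PAT values did not pass (-0.66, adjusted p = 0.0779). The Il1b call between controls was also lost with Tukey's test and with median centring.

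Neither chain of the IL-18 receptor passed between the controls. Il18r1, the binding chain, was at 119.7, 92.8 and 121 in GF controls, 132, 122 and 126 in GF PAT mice, 149, 146 and 119 in SPF controls and 222, 146 and 149 in SPF PAT mice, and passed in no comparison. Il18rap, the accessory chain needed for signalling, was at 27.9, 24.1 and 17.3 in GF controls, 25.7, 35.8 and 26.1 in GF PAT mice, 45.8, 33.6 and 26.8 in SPF controls and 12.01, 17.7 and 16.0 in SPF PAT mice. The SPF PAT mice were below all SPF controls and all GF PAT mice, and overlapped the lowest GF control. They were 2.30-fold below SPF controls (log2 difference -1.20 ± 0.26 SE, adjusted p = 0.010). With each mouse centred on its median the difference was -0.85 and did not pass. The controls overlapped and did not differ past the threshold (0.61, adjusted p = 0.0820).

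Single receptor chains of other families were also lower in SPF controls. Il6ra, the IL-6 binding chain, was at 367, 345 and 268 in GF controls, 323, 248.6 and 253 in GF PAT mice, 189, 190.4 and 187 in SPF controls and 288, 309 and 266 in SPF PAT mice. The SPF controls were nearly equal and below all 9 other mice. They were 1.71-fold below GF controls (log2 difference -0.78 ± 0.15 SE, adjusted p = 0.00310), and SPF PAT mice were 1.52-fold above them (log2 difference 0.61 ± 0.15 SE, adjusted p = 0.0178). Il10rb, a chain shared by the IL-10, IL-22 and interferon lambda receptors, was at 3607, 3944 and 3470.1 in GF controls, 3703, 3359.5 and 3122 in GF PAT mice, 2523, 2080.3 and 2098 in SPF controls and 3909.6, 3384 and 3019 in SPF PAT mice. Here too the SPF controls were the 3 lowest mice, 1.65-fold below GF controls (log2 difference -0.72 ± 0.14 SE, adjusted p = 0.00281) and 1.54-fold below SPF PAT mice (log2 difference 0.62 ± 0.14 SE, adjusted p = 0.0105).

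The ligands for these chains gave few counts. Il6 was counted at 7, 5 and 2 in GF controls, 3, 12 and 8 in GF PAT mice, 5, 4 and 10 in SPF controls and 4, 2 and 12 in SPF PAT mice. Il10, the regulatory cytokine, was counted at 10, 7 and 9 in GF controls, 8, 11 and 5 in GF PAT mice, 10, 14 and 14 in SPF controls and 12, 10 and 6 in SPF PAT mice. Il28a, an interferon lambda, was counted at 5, 5 and 2 in GF controls, 3, 11 and 12 in GF PAT mice, 2, 6 and 10 in SPF controls and 3, 1 and 3 in SPF PAT mice. None of the 3 passed in any comparison, and the 95% intervals of SPF PAT minus SPF control were wide (-1.53 to 1.66 for Il6, -0.91 to 0.79 for Il10 and -2.47 to 0.82 for Il28a).

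Both chains of the IL-12 receptor, found on T and NK cells, were higher in SPF than in GF controls. Il12rb1 was at 11.0, 14.5 and 9.15 in GF controls, 20.4, 19.9 and 18.6 in GF PAT mice, 25.8, 24.8 and 16.8 in SPF controls and 13.2, 16.5 and 18.8 in SPF PAT mice (log2 difference 0.96 ± 0.22 SE, adjusted p = 0.00659). Il12rb2 was at 17.0, 6.02 and 11.2 in GF controls, 10.7, 5.97 and 11.2 in GF PAT mice, 31.6, 23.2 and 30.2 in SPF controls and 22.8, 11.8 and 16.9 in SPF PAT mice (log2 difference 1.43 ± 0.40 SE, adjusted p = 0.0172). For both, the control groups did not overlap. Their raw counts lay between 5 and 38, both calls were lost with each mouse centred on its median, and that of Il12rb2 also without mouse X2 or X38 (1.37 and 1.03). The ligand subunits passed in no comparison. Il12a was counted at 6, 4 and 17 in GF controls, 10, 19 and 23 in GF PAT mice, 11, 32 and 24 in SPF controls and 9, 15 and 16 in SPF PAT mice, and Il12b at 6, 7 and 7 in GF controls, 7, 8 and 9 in GF PAT mice, 7, 9 and 11 in SPF controls and 4, 6 and 18 in SPF PAT mice.

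The second comparison asked how tylosin exposure went with the genes in colonized mice. SPF PAT mice differed from SPF controls in 8 of 52 interleukin genes (15.4%), against 26.3% of all genes. 5 were higher after PAT (Il15, Il10rb, Il17rb, Il6ra and Il1rl2; 14.0% of all genes were higher) and 3 lower (Il18rap, Il2rb and Il21; 12.2% of all genes were lower). With analysis of variance and Tukey's test, only Il15 and Il10rb kept this call, and the share of all genes with that test is not given. The median difference was -0.00 over the interleukin genes and -0.02 over all genes. Scaled to the total count, or centred on each mouse's median (the group medians lay -0.36 apart), 6 were higher and 1 lower (24.3% and 10.3% of all genes with the first scaling, 13.7% and 5.40% with the second). Of these 8 genes, 6 had also passed between SPF and GF controls, each with the opposite sign (Il10rb, Il15, Il17rb, Il1rl2, Il2rb and Il6ra). Both comparisons use the same 3 SPF control mice, so opposite signs are not independent evidence. The share of all genes that passed in both comparisons is not given. The count is therefore not read as particular to the interleukin genes. In the plot of these 8 genes by mouse, the SPF controls stand apart from the other groups for Il15, Il1rl2, Il10rb, Il6ra and Il17rb.

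**Figure D2:**
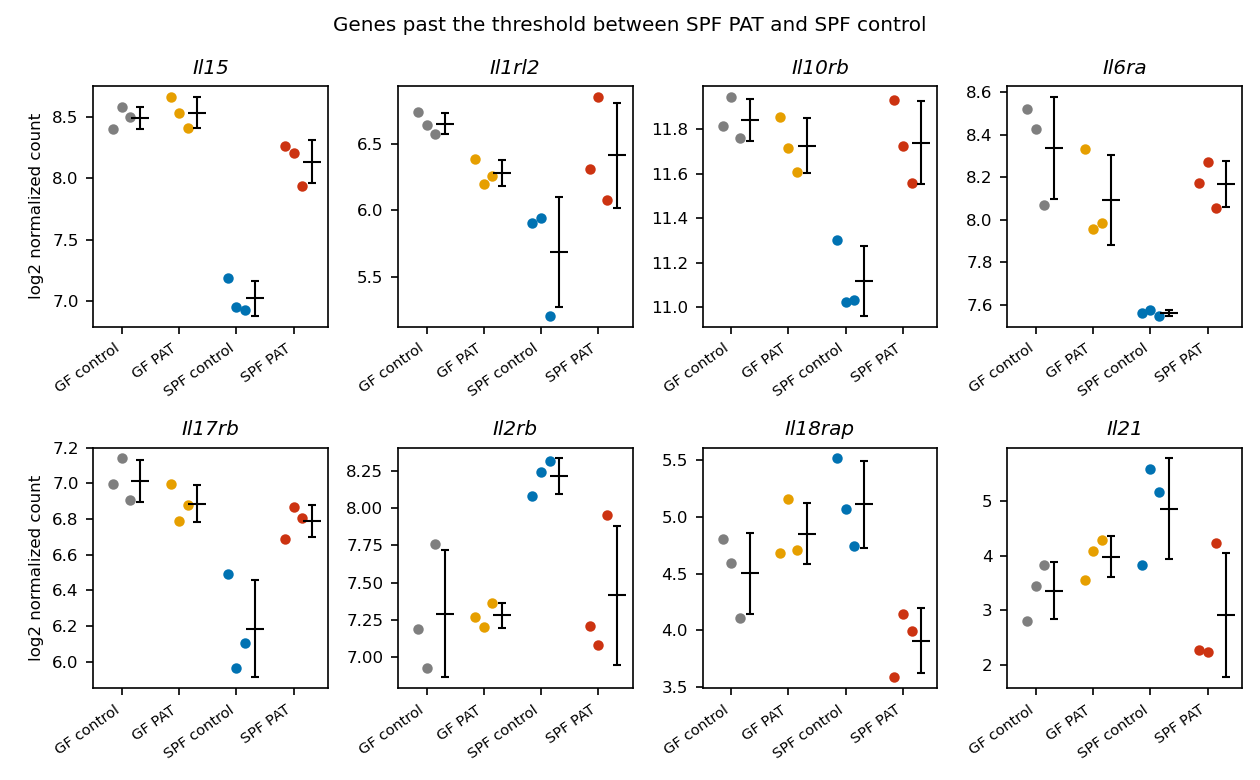
Each panel is a gene past the threshold between SPF PAT and SPF control mice; points are the log2 normalized counts of the 3 mice of each of the 4 groups, and the bar beside them is the mean ± SD. SPF controls are the lowest mice for Il15, Il1rl2, Il10rb, Il6ra and Il17rb and the highest for Il2rb, and mouse X21 lies above the other SPF PAT mice for Il2rb and Il21.

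The count of calls in this comparison moved with single mice. The share of all genes called in these fits is not given, so the changes are not read as particular to the interleukin genes. Without mouse X26, X7 or X2, 3 genes passed (Il10rb, Il15 and Il18rap), and without mouse X27 4 passed (these and Il17rb). Without any of mice X43, X42, X41 or X39, which enter through the shared estimate of the spread, 5 passed (Il10rb, Il15, Il17rb, Il18rap and Il6ra). Without mouse X21, the SPF PAT mouse with the high B cell marker sum, 15 passed, adding Il16, Il21r, Il27ra, Il2ra, Il2rg and Il5 on the lower side and Il6st on the higher side. Il15 passed in every fit run.

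Il21, a cytokine of follicular helper T cells that acts on B cells, was counted at 7, 9 and 14 in GF controls, 11, 17 and 21 in GF PAT mice, 17, 60 and 43 in SPF controls and 4, 4 and 20 in SPF PAT mice. The normalized counts of mouse X21 (18.8) and mouse X8 (14.1) overlapped. The SPF PAT mean was 3.86-fold below the SPF control mean (log2 difference -1.95 ± 0.60 SE, adjusted p = 0.0402). This call held under 8 of 20 alternatives and was lost without mouse X27, X26, X7 or X2 (differences -1.62, -1.61, -1.59 and -1.79), and without X43, X42, X41, X39 or X38. Il21r, its receptor, was at 8.98, 19.3 and 98.6 in GF controls, 48.3, 97.5 and 166 in GF PAT mice, 34.1, 225 and 179.5 in SPF controls and 8.41, 16.5 and 134 in SPF PAT mice. Its spread within groups (pooled SD 1.62 log2 units) exceeded that of every other interleukin gene, and it passed in no comparison (SPF PAT minus SPF control -2.07, 95% interval -4.76 to 0.63).

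The third comparison took tylosin exposure without a microbiota. GF PAT and GF control mice differed in 0 of 52 interleukin genes by limma, and in 0% of all genes (3 interleukin genes and 28 genes in all had an unadjusted p under 0.05, and no alternative gave an interleukin call). The 3 were Il12rb1 (0.79, adjusted p = 0.411), Il1r2 (0.42, adjusted p = 0.693) and Il4 (0.53, adjusted p = 0.693). For the 8 genes called after PAT in SPF mice, the 95% interval of the GF difference was -0.25 to 0.34 for Il15, -0.42 to 0.19 for Il10rb, -0.46 to 0.20 for Il17rb and -0.58 to 0.09 for Il6ra. It was wider for the other 4, at -0.89 to 0.15 for Il1rl2, -0.58 to 0.56 for Il2rb, -0.23 to 0.93 for Il18rap and -0.72 to 1.96 for Il21. The GF PAT mice lay below all GF controls for Il1rl2 and overlapped them for the other 7 genes.

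The difference between the PAT effect in SPF and in GF mice was tested directly. It passed for 7 of 52 interleukin genes (13.5%), against 17.1% of all genes. It was positive for Il15, Il1rl2, Il6ra, Il10rb and Il17rb (9.89% of all genes were positive) and negative for Il18rap and Il12rb1 (7.19% of all genes were negative). The difference was 1.07 ± 0.18 SE log2 units for Il15 (adjusted p = 0.0103) and -1.55 ± 0.36 for Il18rap (adjusted p = 0.0227). For 6 of the 7 genes the 2 effects had opposite signs, and for Il15 both were positive (1.11 in SPF and 0.04 in GF mice). The 7 genes were picked for a difference between the effects, which favours opposite signs. None of their differences in GF mice passed the threshold, so the signs are not read as an effect of tylosin in GF mice. The effects on Il12rb1 were -0.46 in SPF and 0.79 in GF mice, neither past the threshold, and differed by -1.26 (adjusted p = 0.0275). With each mouse centred on its median 6 were positive and none negative, against 10.8% and 3.42% of all genes. Leaving out mouse X27 or X42 left Il15 as the 1 call, mouse X26, X7, X41 or X39 left 2, mouse X2 or X38 left 3, and without mouse X21 there were 15. For these fits too the share of all genes is not given.

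The fourth comparison set tylosin-exposed SPF mice against tylosin-exposed GF mice. No interleukin gene of 52 passed by limma, against 1.44% of all genes (0.899% higher and 0.540% lower in SPF PAT). An unadjusted p under 0.05 was found for 8 of the 52 interleukin genes and for 56 of all 556 genes. Il4ra (0.43, 95% interval 0.21 to 0.66), Il18 (1.07, 0.28 to 1.86), Il15 (-0.40, -0.69 to -0.11) and Il18rap (-0.94, -1.52 to -0.36) were among these 8, each without overlap between the groups. So were Il1r1 (0.46), Il18r1 (0.42) and Il4 (-0.57), also without overlap. Il4ra passed under voom on the recovered counts and under a variance trend, Il15 when scaled to the total count, and Il1rl1 with the B cell marker mean as a covariate, 1 gene in each. The share of all genes in these 4 fits is not given. Il10rb, Il6ra and Il17rb overlapped between the groups, with 95% intervals of -0.29 to 0.32, -0.26 to 0.41 and -0.43 to 0.23. In the plot of differences, the open symbols of these genes lie near 0 in this comparison. The F-test over the 4 groups passed for 12 of 52 interleukin genes (23.1%), against 33.1% of all genes.

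**Figure D3:**
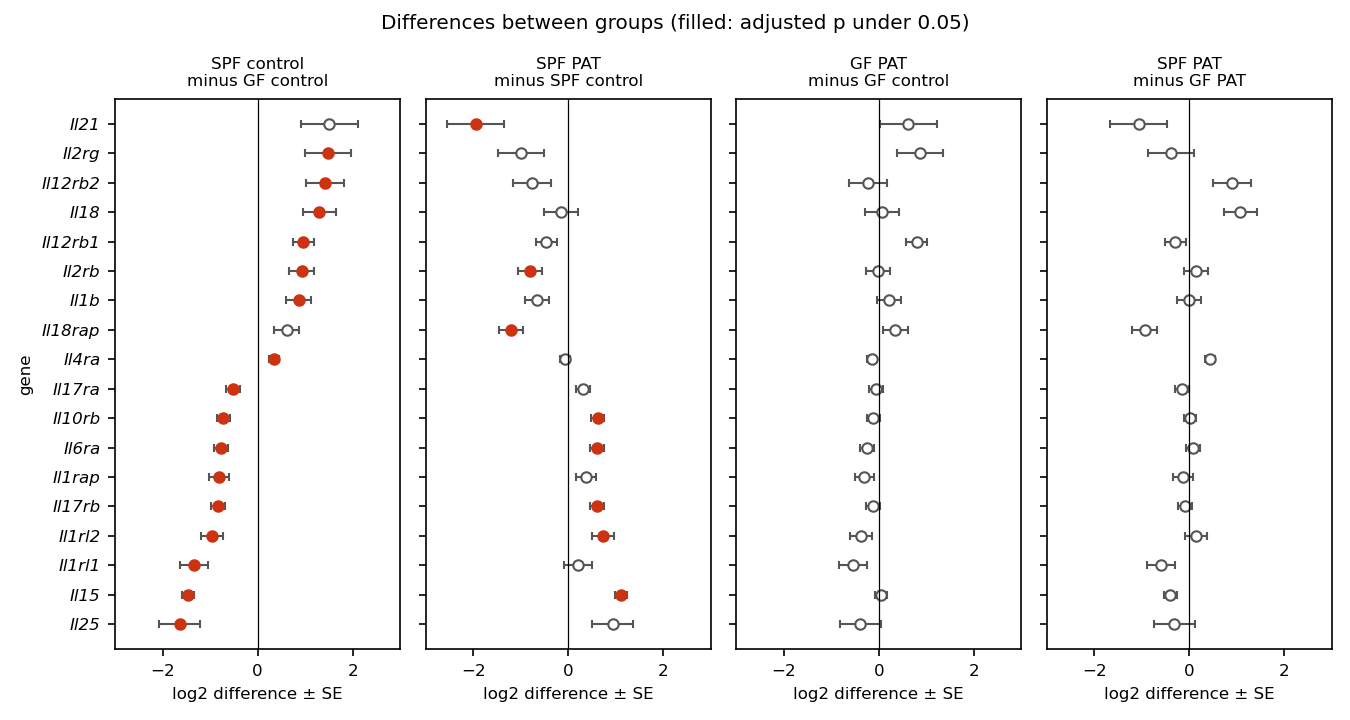
Log2 differences ± SE (12 mice, limma) for the 18 interleukin genes past the threshold in a comparison, in 4 comparisons; filled symbols are past the adjusted p threshold of 0.05 and open symbols are not. 16 symbols are filled in the first panel, 8 in the second, and none in the panels of GF PAT minus GF control and SPF PAT minus GF PAT.

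The order of the mice within groups was compared with that of the B cell marker sum, and the interleukin genes shared it about as often as all genes did. For Il10ra, Il16, Il21, Il21r, Il22ra2, Il27ra, Il2ra and Il2rg, 8 of 52 interleukin genes (15.4%), the highest mouse of all 4 groups was the mouse with the highest B cell marker sum, against 18.3% of all genes. Il21r and Il2ra followed the whole order of the marker sum in every group (3.85% of the interleukin genes, against 4.32% of all genes). Il2ra, the high-affinity IL-2 receptor chain of regulatory and activated T cells, ranged from 17 to 70 counts and passed in no comparison. Il16, a lymphocyte chemoattractant, was at 83.8, 79.5 and 161 in GF controls, 104, 167 and 265 in GF PAT mice, 141, 347 and 314 in SPF controls and 75.7, 100.3 and 288 in SPF PAT mice. Il27ra, the IL-27 receptor chain of T cells, was at 29.9, 32.5 and 83.3 in GF controls, 35.4, 72.6 and 107 in GF PAT mice, 79.0, 159 and 122 in SPF controls and 34.8, 31.9 and 99.7 in SPF PAT mice. Il22ra2, the soluble decoy receptor for IL-22, was at 212, 198 and 379 in GF controls, 356, 392 and 596 in GF PAT mice, 139.8, 404 and 356 in SPF controls and 256, 275 and 544 in SPF PAT mice. In each of these 3 genes the groups overlapped, and none passed. With the mean of the B cell markers as a covariate (an alternative chosen after seeing the data), Il15 kept its calls, and 22 of 52 interleukin genes passed between the controls, against 48.2% of all genes. Of these 22, 12 were higher and 10 lower (25.0% and 23.2% of all genes).

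**Figure D4:**
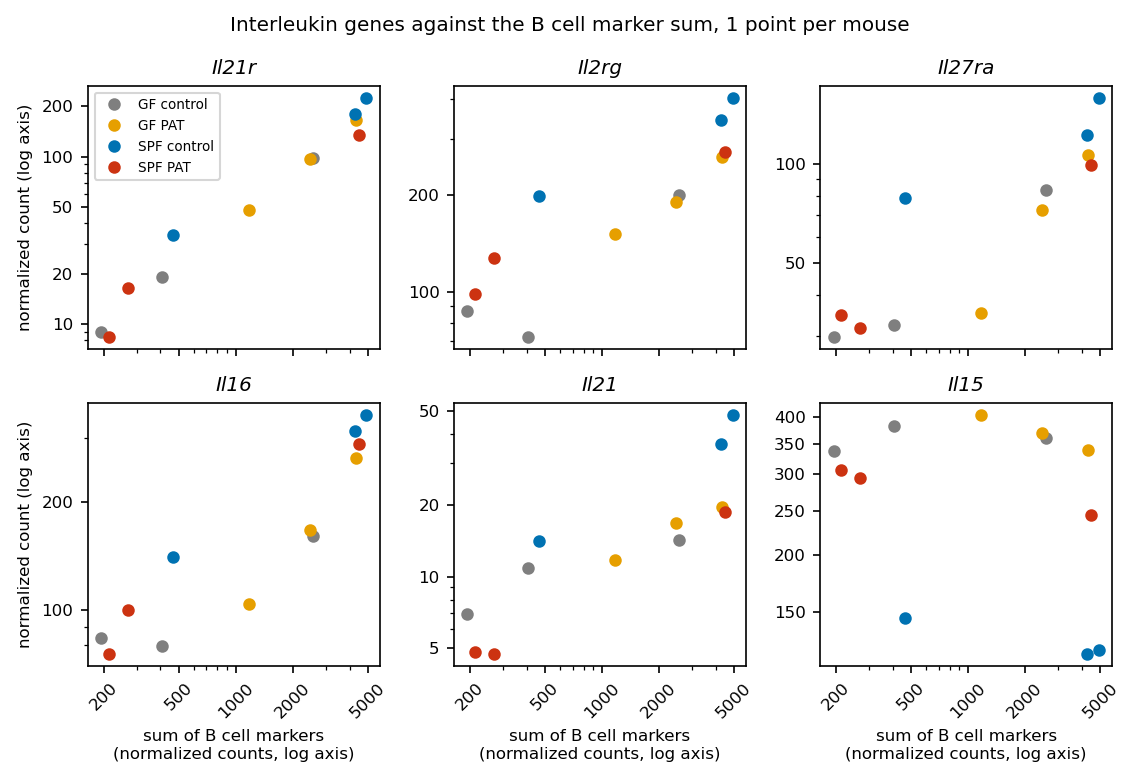
Normalized counts of 6 interleukin genes against the summed normalized counts of 7 B cell markers, both on log axes, 1 point per mouse, coloured by group. Il21r, Il2rg, Il27ra, Il16 and Il21 are high in the mice with high marker sums, and Il15 instead separates SPF controls from the other 9 mice.

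Markers of T and cytotoxic cells differed between the groups, and the T cell sums also differed widely between mice of a group. Among all genes, 19.4% were higher and 22.7% lower in SPF than in GF controls. Between SPF PAT and SPF control mice 14.0% were higher and 12.2% lower. Of 13 listed T cell markers 12 had values: 8 were higher in SPF than in GF controls and 7 lower in SPF PAT than in SPF control mice. Their sums were 1494, 2456 and 2159 normalized counts in SPF controls (X8, X7 and X2) and 498, 594 and 1510 in SPF PAT mice (X27, X26 and X21). In GF controls (X39, X38 and X37) they were 475, 457 and 1063, and in GF PAT mice (X43, X42 and X41) 657, 952 and 1289. Mouse X21 overlapped the SPF controls. The highest mouse of each group was also the highest for the B cell marker sum. Of 6 NK and cytotoxic markers 5 had values, with 4 higher and 4 lower in these comparisons (Gzma, Gzmb, Prf1 and Klrd1). Their sum was 2857 to 3503 in SPF controls, 614 to 1165 in SPF PAT mice, 406 to 648 in GF controls and 384 to 683 in GF PAT mice, so SPF controls stood apart. These values lie beside those of Il2rb, Il2rg, Il12rb1, Il12rb2 and Il18rap, genes known from T and NK cells, and their part in those results was not tested. Of these genes only Il2rb passed in both comparisons. Il2ra, Il7r and Il27ra passed in neither, with differences in the directions of the markers. Il18r1, the partner of Il18rap, also passed in neither, and its mean was higher in SPF PAT than in SPF control mice (0.30, adjusted p = 0.244 by limma). Of the 7 epithelial markers with values, 3 were lower in SPF than in GF controls and higher in SPF PAT than in SPF control mice (Ctnnb1, Mme and Dpp4), in the direction of Il15, Il17rb, Il10rb, Il6ra and Il1rl2. Pigr was higher in SPF than in GF controls (0.77, adjusted p = 0.0257) and was not past the threshold between SPF PAT and SPF control mice (-0.59, adjusted p = 0.0896), and Itln1, Ceacam1 and Muc1 passed in neither comparison. The part of these markers was not tested either. Of the 2 mast cell markers with values out of 3, Kit also took the directions of Il15, while Fcer1a passed in neither comparison, with differences of the other sign (1.01, adjusted p = 0.191 and -0.78, adjusted p = 0.322). Of 4 endothelial and stromal markers, Pdgfrb took these directions and Cdh5 was lower in SPF than in GF controls, while Pecam1 and Icam2 passed in neither comparison, Icam2 with differences of the other sign (0.43, adjusted p = 0.292 and -0.26, adjusted p = 0.546). Of 9 mononuclear phagocyte markers with values out of 11, Itgam was higher and Cd163 lower in SPF than in GF controls, and Itgam was lower in SPF PAT than in SPF control mice.

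Of 10 listed partner genes without an interleukin name, 8 had values. Between SPF and GF controls 1 was higher and 2 lower (19.4% and 22.7% of all genes). Between SPF PAT and SPF control mice 2 were higher and 0 lower (14.0% and 12.2% of all genes). Sigirr, an inhibitory receptor of the IL-1 family, was lower in SPF than in GF controls (-0.98, adjusted p = 0.000737) and higher in SPF PAT than in SPF control mice (0.74, adjusted p = 0.00545), and Lif, a cytokine of the gp130 family, did the same (-1.04, adjusted p = 0.00165 and 0.81, adjusted p = 0.0102). Csf2rb, the beta chain shared by the IL-3 and IL-5 receptors, was higher in SPF than in GF controls (0.66, adjusted p = 0.0236). None passed between GF PAT and GF control mice, and for Sigirr the difference between the PAT effects passed as well.

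Among 22 genes of interleukin signalling, all with values, 4 were higher and 9 lower in SPF than in GF controls (19.4% and 22.7% of all genes). The higher were Jak3, the kinase that binds the common gamma chain (1.23, adjusted p = 0.00420), Stat4, which acts below the IL-12 receptor (1.74, adjusted p = 0.0311), Socs1, a feedback inhibitor (1.03, adjusted p = 0.00326), and Nfkbiz (1.03, adjusted p = 0.000932). The lower included Stat6, which acts below the IL-4 receptor (-0.75, adjusted p = 0.00266), Tyk2 (-0.60, adjusted p = 0.00266), Jak1 (-0.48, adjusted p = 0.00750) and, from the pathway of the IL-1 receptors, Myd88 (-0.52, adjusted p = 0.0107) and Tollip (-0.82, adjusted p = 0.00778), with Jak2, Irak2, Irak4 and Traf6. In SPF PAT against SPF control mice 4 were higher (Jak2, Tyk2, Stat6 and Tollip, against 14.0% of all genes) and 2 lower (Socs1 and Nfkbiz, against 12.2%). None passed between GF PAT and GF control mice or between SPF PAT and GF PAT mice. The difference between the PAT effects passed for 4 on the positive and 1 on the negative side (9.89% and 7.19% of all genes).

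Of the 52 genes, 34 passed in no comparison and not in the F-test. The receptor chains among them that were well counted were Il13ra1 (log2 10.67 to 11.24 over the 12 mice), Il6st (8.99 to 9.52), Il10ra (6.69 to 7.63) and Il7r (5.97 to 7.20), besides those given above. Il11ra1, the IL-11 receptor, was counted at 10 to 30 and had a difference between controls of -0.91 (adjusted p = 0.0549). Il1rn, the natural antagonist of IL-1, ranged from 6.24 to 7.09 with overlapping groups. The remaining ligands Il1a, Il3, Il5, Il19, Il20 and Il27 had at most 33 counts in a mouse. Il5, the eosinophil growth factor, was at 0 counts in mice X27 and X26 and at 1 to 3 in the other 10, too few for a difference to be read.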

How the data were processed

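Ileal RNA of 12 mice was measured by nCounter, which counts probe molecules without amplification. The authors normalized the counts with DESeq2 and deposited log2 values per gene and mouse, with 0 for a count of 0. 556 genes had values, and 28 control and reference entries had none. No values came from other columns (0 left unused). Counts were recovered with 1 size factor per mouse, whole to within 0.01, and gave the depth. The recovered counts served voom, total-count scaling and depth, and precision is limited by the number of mice.

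Groups came from the labels. One mean per group was fitted over all 556 genes and 12 mice with limma 3.58.1 (R 4.3.3), in place of the methods' analysis of variance with Tukey's test, which was run as an alternative. p-values were adjusted by Benjamini-Hochberg over all 556 genes (threshold 0.05), and 5 contrasts and an F-test were tested. The fits were tested on simulated data. Alternatives were the methods' test, voom, an intensity trend, the 2 groups alone, a filter at a mean of 20, median centring, total-count scaling, log2 with 1 added, each mouse left out, and a B cell covariate.

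The genes, families and lists were chosen with earlier results of these data known. A gene of the B cell list and a gene of the signalling list are not reported here and entered neither list's counts or sums. Values in every mouse were given for genes past the threshold and for the ligands or chains that pair with them. Promoter entries came from RefSeq tables and were matched by symbol. The aligner does not apply, and a genome build for the panel is not given in the sources used here.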

Additional observations from a re-analysis of the deposited data

Results flagged for a closer look

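For 7 of 52 interleukin genes (13.5%, against 17.1% of all genes) the tylosin effect differed between SPF and GF mice by the direct test (SPF PAT minus SPF control, less GF PAT minus GF control, log2 units, limma). The difference was 1.07 for Il15, 1.10 for Il1rl2, 0.85 for Il6ra, 0.73 for Il10rb and 0.73 for Il17rb, genes that were higher in SPF PAT than in SPF control mice. It was -1.55 for Il18rap, which was lower in SPF PAT than in SPF control mice, and -1.26 for Il12rb1, which passed in neither group of mice alone. The adjusted p was 0.0103 for Il15 and lay between 0.0227 and 0.0475 for the other 6. Each effect rests on 3 mice against 3. Only Il15 kept this call under every alternative. Il1rl2 lost it under 12 of 20, Il10rb, Il17rb and Il6ra under 9 of 20 each, Il12rb1 under 8 of 19 and Il18rap under 3 of 20.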

How the results depend on the processing

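Of 31 gene differences past the threshold, 7 kept their call under every alternative run: Il10rb, Il15, Il17rb, Il1rl1 and Il6ra between SPF and GF controls, and Il15 between SPF PAT and SPF controls and in the difference between PAT effects. Over 639 fits of these differences 503 kept the call, 135 lost it and 1 changed sign (Il4ra between controls, -0.0945 with median centring). Between SPF and GF controls, 16 interleukin genes passed in the main analysis, 7 with the methods' test and 11 to 20 when 1 mouse was left out. Between SPF PAT and SPF controls, 8 became 2 with the methods' test (Il15 and Il10rb), 3 with the 2 groups alone and 3 to 15 when 1 mouse was left out. Between SPF PAT and GF PAT mice, 0 became 1 under voom, the intensity trend, total-count scaling or the B cell covariate. For the difference between PAT effects, 7 became 3 with the B cell covariate and 1 to 15 when 1 mouse was left out. For the F-test, 12 became 21 with the covariate and 4 to 17 when 1 mouse was left out (4 without X7 or X2, 7 without X39). The cause of these changes was not tested, and the fits that left out a mouse rest on fewer mice. The share of all genes under these alternatives is not given beside the counts in this section. The changes are therefore not read as particular to the interleukin genes. With a mean of at least 20 required, Il12rb1, Il12rb2, Il21 and Il25 were not tested. The fit on the 2 groups alone does not apply to the F-test or the difference between effects. No paired analysis was possible because the labels give no replicate numbers shared between groups.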
